A study of Mus musculus with 32 samples.

Results

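The N6-methyladenosine (m6A) pulldown of mouse brain was set against that of mouse heart, the 2 excitable organs of a study of 4 organs. The genes described here had a log2 level of at least 1 in brain or in heart, in frozen tissue and also in FFPE tissue (formalin-fixed and paraffin-embedded), and 11519 of the 27179 genes in the deposited table met this rule. Of these, 1908 (16.6%) were shared, meaning that all 4 libraries had a log2 level of at least 3 and that brain and heart were within 2-fold of each other in frozen and in FFPE tissue. A further 2976 genes (25.8%) were 2-fold or more higher in brain in both preservations, 1913 (16.6%) were 2-fold or more higher in heart in both, 10 were 2-fold apart in opposite directions, and the remaining 4712 met none of these conditions. Because levels chose these classes, the values that chose them are given as a description.

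Mouse brain, heart, kidney and liver were harvested and either flash frozen or fixed in 10% formalin and embedded in paraffin. RNA was sheared for 20 min with the PIXUL ultrasound instrument, pulled down with an antibody to m6A, and made into total RNA libraries with a kit that removes ribosomal RNA. The groups used are frozen brain, FFPE brain, frozen heart and FFPE heart, with frozen and FFPE kidney and liver as the organs both are set against. Each group is 1 column of the table, no strain, genotype, age or treatment is given in the labels, and none of the columns is an input library. Without input, more transcript and more m6A on each transcript cannot be told apart, and in whole organs neither can fewer cells of a type and less RNA per cell.

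m6A is a methyl mark that a nuclear enzyme complex built around METTL3 and METTL14 places on messenger RNA, often near stop codons and in long internal exons. FTO and ALKBH5 remove it, and YTH-domain proteins bind it and influence splicing, export, translation and decay. Brain and heart both work through electrical excitation and calcium entry, but neurons use calcium to release transmitter at synapses whereas cardiomyocytes use it to drive the sarcomere, and the heart meets its energy needs largely by oxidising fatty acids.

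The libraries held 9603050 (FFPE brain) to 21523379 (frozen brain) counts in genes, of which ribosomal RNA genes took 62.8% (frozen brain) and 50.4% (FFPE brain), against 79.7% (frozen heart) and 71.9% (FFPE heart). Counts outside ribosomal RNA genes came to 8004550 in frozen brain and 4767353 in FFPE brain, against 3941363 in frozen heart and 3825381 in FFPE heart. Levels are log2 CPM (counts scaled to a fixed total, here the authors' scaled library size). A gene with 3 counts had a log2 level of -3.29 and -2.62 in frozen and FFPE brain, and of -1.89 and -1.73 in frozen and FFPE heart, and the fitted difference of a gene at or under 3 counts depends on the 0.5 count added to it.

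The markers of neurons and cardiomyocytes were high in the organ the labels name, but the frozen heart library held more neuronal signal than the FFPE heart library. The summed level of 12 neuron markers was 1670 CPM in frozen brain and 1331 in FFPE brain, against 70.3 in frozen heart and 34.0 in FFPE heart. All 12 had more than 3 counts in frozen heart and 8 of 12 in FFPE heart. Their median brain minus heart difference was 4.44 in frozen and 7.05 in FFPE tissue, and 10 of the 12 differed less in frozen tissue. Syt1, the calcium sensor of synaptic vesicles, had a log2 level of 3.18 in frozen heart and -0.84 in FFPE heart, whereas Slc17a7, a vesicular glutamate transporter, ran the other way at 2.15 and 3.61. The 7 oligodendrocyte markers summed to 1474 and 920 CPM in frozen and FFPE brain, against 43.4 and 14.3 in frozen and FFPE heart, and Mag was at 0 counts in FFPE heart. The 12 cardiomyocyte markers summed to 150 and 240 in frozen and FFPE brain, against 40825 and 46899 in frozen and FFPE heart. Erythroid markers (3 genes) summed to 194 CPM in FFPE heart and to between 3.12 and 17.0 in the other 3 libraries. Hepatocyte markers were at 364 CPM in frozen brain, nearly all of it Ttr, the transthyretin that the choroid plexus also makes, with a log2 level of 8.51 there and 4.31 in FFPE brain. The part of these differences in the results below was not tested.

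**Figure D1:**
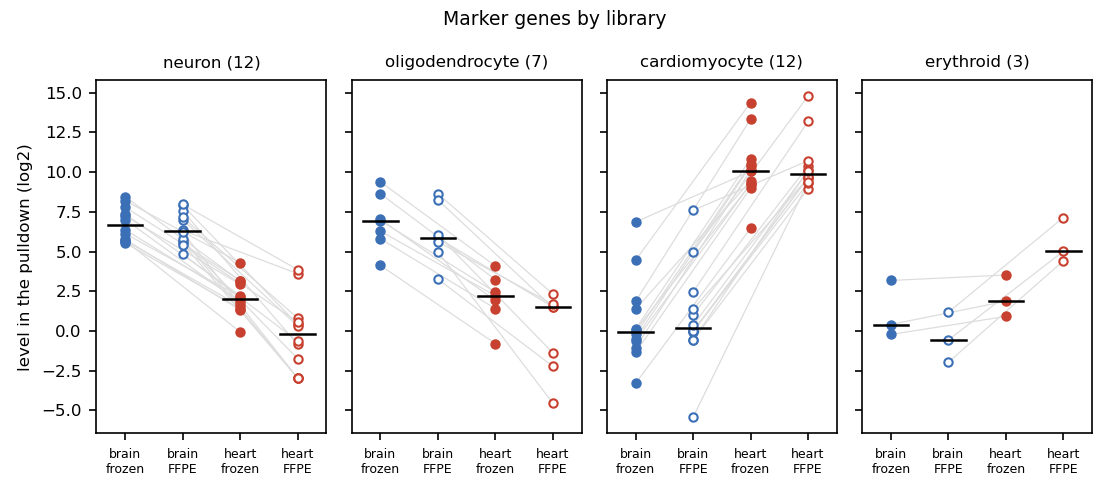
Log2 level of neuron, oligodendrocyte, cardiomyocyte and erythroid marker genes in each of the 4 libraries; each point is 1 gene and the black bar is the median of its list. Neuron markers have a median of 6.70 in frozen and 6.28 in FFPE brain, against 2.04 in frozen and -0.16 in FFPE heart.

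Brain and heart differed in a large share of the transcriptome, in much the same way in frozen and in FFPE tissue. A limma fit with terms for organ and preservation over all 8 m6A libraries tested 14864 genes. At a Benjamini-Hochberg adjusted p under 0.05 it called 3912 of them higher in brain (26.3%) and 2845 lower (19.1%). With no test, 23.0% of the tested genes were 2-fold or more higher in brain in both preservations, and 16.9% were 2-fold or more higher in heart. Among the 11519 genes described here, 3634 were called higher in brain, 2400 were called lower and 5485 were not called. The median difference was 0.28 over these genes (0.38 in frozen and 0.19 in FFPE tissue) and 0.17 over all tested genes. The sign was the same in frozen and FFPE tissue for 12405 of 14864 tested genes. Each organ has 1 frozen and 1 FFPE library and the fit has 3 residual degrees of freedom, so its p-values measure how alike the preservations behaved, not the spread between animals.

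The split between higher and lower calls depended on how the libraries were put on 1 scale. On the authors' scale 57.9% of the calls were higher in brain. The share was 46.8% after quantile normalization (which moved the median of all tested genes by -0.29), 45.8% after centring on medians (-0.31), 74.0% after scaling by counts outside ribosomal RNA genes (0.47) and 88.8% after scaling by total gene counts (1.32). Differences below are on the authors' scale, and a difference smaller than these shifts has no settled direction. The calls also depended on each library: 2180 tested genes were called higher in brain without FFPE brain, 2580 without frozen brain, 2826 without FFPE heart and 3185 without frozen heart, and 1935, 2310, 2017 and 2373 were called lower.

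The level rule itself selected genes that differ. Of the 11519 genes, 7684 had a log2 level of at least 1 in all 4 libraries, 1524 met the rule through brain alone and 963 through heart alone, and a gene of the last 2 kinds had to differ between the organs. The nearest levels on either side of the limit were 1.0 inside and 0.98 outside, with 1084 genes within 0.5 of it inside and 910 outside. Of 2931 genes with all 4 levels at 3 or more, 962 were inside the 2-fold limit by less than 0.5 log2 and 470 were outside it by less than that. The largest difference just inside and the smallest just outside were both 1.0 after rounding.

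**Figure D2:**
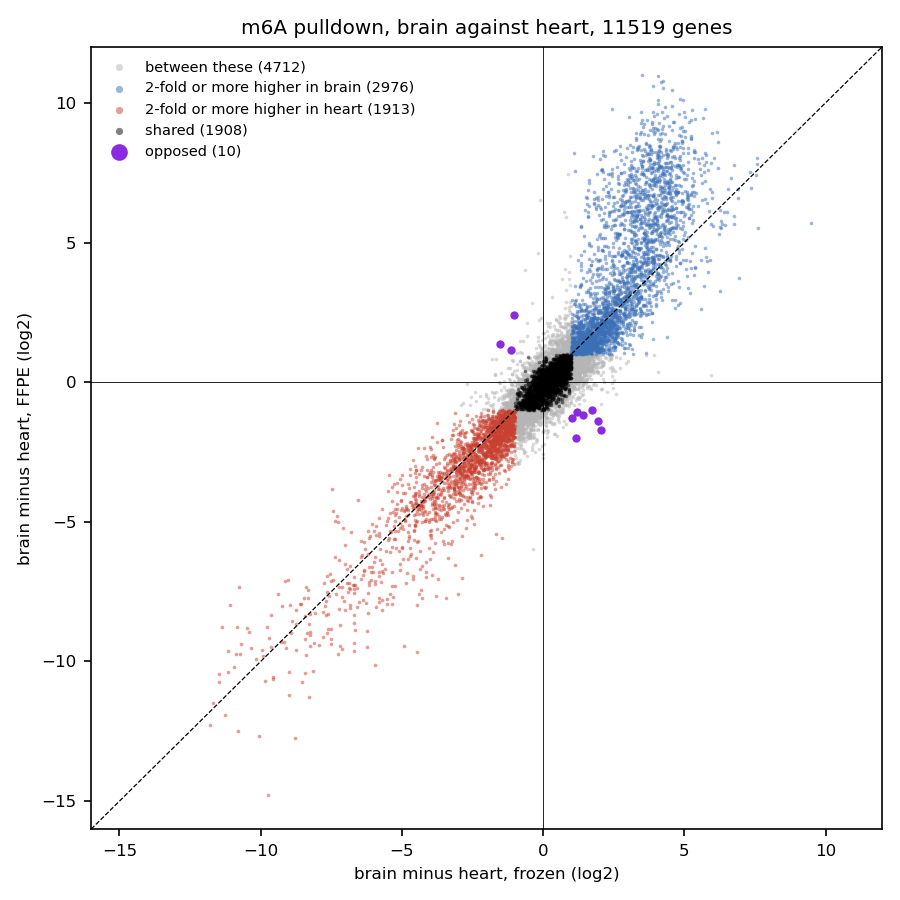
Brain minus heart difference (log2) of the 11519 genes in frozen tissue (x axis) and in FFPE tissue (y axis), coloured by class; the dashed line marks equal differences. The class medians are 2.63 in frozen and 3.12 in FFPE tissue for the 2976 genes higher in brain, and -2.33 and -2.66 for the 1913 higher in heart.

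The differences were smaller in frozen than in FFPE tissue for most genes that one organ held above the other. Of the 2048 genes at which brain was 2-fold or more above heart, kidney and liver in both preservations, 1508 (73.6%) differed less from heart in frozen tissue, with medians of 3.17 in frozen and 4.37 in FFPE tissue. Of the 632 genes at which heart was 2-fold or more above brain, kidney and liver, 412 (65.2%) differed less in frozen tissue, with medians of -3.44 and -3.72. These 2 counts describe genes that their own values chose. Of the 3634 genes called higher in brain, 2151 (59.2%) differed less in frozen tissue. Their medians were 2.21 in frozen and 2.30 in FFPE tissue. Of the 2400 genes called lower in brain, 1674 (69.75%) differed less in frozen tissue, with medians of -1.88 and -2.26. Among called genes the heart side thus had the larger share. The median over all tested genes was 0.24 in frozen and 0.11 in FFPE tissue. Such an offset makes heart-side differences smaller and brain-side differences larger in frozen tissue, and its part in these shares was not tested. Of the neuron markers 10 of 12 differed less in frozen tissue, and of the cardiomyocyte markers 4 of 12 did. The part of neuronal signal in frozen heart in this gap was not tested.

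The shared genes were mostly genes that the other organs held at a like level too. Of the 1908, 979 (51.3%) were within 2-fold of kidney and of liver in all 8 pairs of an excitable with another organ of the same preservation, 74 (3.88%) were 2-fold or more above kidney and liver in all 8 pairs, and 19 (0.996%) were 2-fold or more below in all 8. The contrast of brain and heart with kidney and liver called 574 of the 1908 higher (30.1%) and 341 lower (17.9%), against 28.3% higher and 24.4% lower over all tested genes. The floor of log2 3 in brain and heart favours higher calls, and nothing is read from the share of 30.1%. Without frozen heart the counts were 519 higher and 292 lower. Being within 2-fold did not always mean that no difference was called. Of the shared genes 234 (12.3%) were called higher in brain and 117 (6.13%) lower, against 26.3% and 19.1% of all tested genes. For 1332 of 1908 the 95% interval of the fitted difference lay inside 2-fold. The shared rule limits these same differences, so nothing further is read from these counts. Which genes are within 2-fold also depends on the scale. Total gene counts moved the median difference by 1.32, which is past 2-fold, and left 746 shared genes in place of 1908. The shared genes named below are shared on the authors' scale.

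The 12 shared genes with the largest excess over kidney and liver at a level of at least 5 include an ion exchanger, a calcium channel subunit, ankyrin 1 and beta spectrin, a kinase anchor, and an elongation factor. Eef1a2 encodes the form of elongation factor 1 alpha that neurons and striated muscle switch to after birth. Its log2 level was 7.18 in frozen and 6.68 in FFPE brain and 7.45 in frozen and 7.53 in FFPE heart, against -1.20 and -1.04 in frozen and FFPE kidney and 0.32 and -0.49 in frozen and FFPE liver. All 4 libraries of the excitable organs were above all 4 of the others, by 7.82 ± 0.20 (SE; adjusted p = 1.4e-07). Between brain and heart it differed by -0.56 ± 0.29, with a 95% interval of -1.22 to 0.09.

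Akap6 encodes an anchor that holds protein kinase A at the nuclear envelope of muscle cells and neurons. Its level was 7.20 in frozen and 6.89 in FFPE brain and 6.88 in frozen and 7.53 in FFPE heart, against 0.06 to 1.12 in kidney and liver, a difference of 6.46 (adjusted p = 1.7e-07). The excitable organs did not overlap the other 2, and brain and heart differed by -0.16 ± 0.26.

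Ank1 and Sptb encode ankyrin 1 and beta spectrin, which tie membrane proteins to the spectrin skeleton and are best known from red cells. Ank1 read 5.54 in frozen and 6.02 in FFPE brain and 5.51 in frozen and 5.96 in FFPE heart, against -2.96 to -0.87 in kidney and liver (difference 7.62, adjusted p = 1.7e-06). Sptb read 6.57 and 6.60 in frozen and FFPE brain and 6.42 and 6.66 in frozen and FFPE heart, against 0.53 to 2.45 in kidney and liver (5.06). For both genes the levels in brain and heart were within 2-fold on the authors' scale. The 3 erythroid markers summed to 11.2 and 3.12 CPM in frozen and FFPE brain, against 17.0 and 194 in frozen and FFPE heart, and the part of red cells in these levels was not tested. For Ank1 the 95% interval of brain minus heart ran from -1.17 to 1.26, which includes a 2-fold difference either way.

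Cacna2d1, an auxiliary subunit of voltage-gated calcium channels, had levels of 5.37 and 5.82 in frozen and FFPE brain and 5.97 and 6.13 in frozen and FFPE heart, against 0.58 to 1.79 in kidney and liver (4.60). Lynx1, a membrane-tethered modulator of nicotinic acetylcholine receptors, read 6.29 and 6.04 in frozen and FFPE brain and 5.33 and 5.89 in frozen and FFPE heart, against 2.77 and 2.72 in frozen and FFPE kidney and -0.42 and -0.86 in frozen and FFPE liver (4.83). Pkm, the pyruvate kinase of brain and muscle, read 7.59 and 6.83 in frozen and FFPE brain and 6.94 and 7.28 in frozen and FFPE heart, with kidney between at 5.47 and 5.29 and liver at 2.47 and 2.17 (3.31). On the authors' scale these 3 genes were thus alike in brain and heart but not alike in the organs below them, since kidney stood above liver for each.

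Fry, a large scaffold protein, was 3.55 above kidney and liver, Mcf2l, a guanine nucleotide exchange factor, 4.46 ± 0.61, and Agtpbp1, an enzyme that trims glutamates from tubulin, 2.77. Agtpbp1 was also called higher in brain than in heart, by 0.56 ± 0.20 (adjusted p = 0.046), though its levels stayed within 2-fold. Mcf2l differed between brain and heart by 0.36 with an interval of -1.59 to 2.31, the widest of the 12 genes, and its FFPE liver level of -3.66 is a count of 0. Slc8a1, the sodium-calcium exchanger that carries calcium out of cardiomyocytes, met the rule for this set with a mean difference of 2.81, but its FFPE kidney level of 7.94 was above all 4 levels in brain and heart (7.02 and 7.23 in brain, 7.14 and 7.92 in heart).

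**Figure D3:**
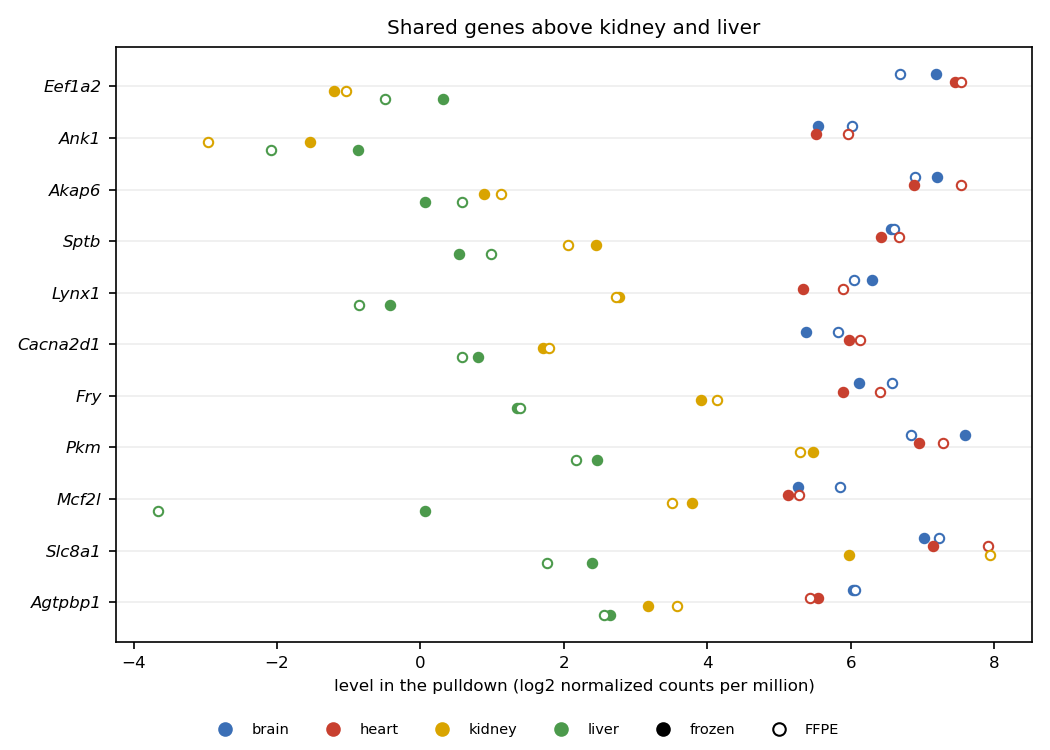
Log2 level of 11 of the 12 shared genes that stood highest above kidney and liver; filled points are frozen and open points FFPE libraries, coloured by organ. Brain and heart points lie together for every gene drawn, and kidney and liver lie to the low side except for FFPE kidney at Slc8a1.

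Promoter sequences of 3 of these genes are shown because the genes stand together far above kidney and liver, and a reader can compare what lies at their starts. They are the 300 bases from 250 before to 50 after a transcription start in the RefSeq annotation of GRCm38.p6, read 5′ to 3′ on the gene's strand. Capitals mark any match, on either strand, to the letters of the TATA box (TATAAA), the GC box that SP1 binds (GGGCGG), the CAGCTG form of the E-box that muscle bHLH factors bind, the MEF2 core CTANNNNTAG, the estrogen-related receptor half-site AAGGTCA or the cyclic AMP response element TGACGTCA. The letters of the MEF2 core can contain those of the TATA box. The Eef1a2 window lies at chr2:181156966-181157265 on the minus strand, the Akap6 window at chr12:52699133-52699432 on the plus strand and the Sptb window at chr12:76710498-76710797 on the minus strand.
Eef1a2: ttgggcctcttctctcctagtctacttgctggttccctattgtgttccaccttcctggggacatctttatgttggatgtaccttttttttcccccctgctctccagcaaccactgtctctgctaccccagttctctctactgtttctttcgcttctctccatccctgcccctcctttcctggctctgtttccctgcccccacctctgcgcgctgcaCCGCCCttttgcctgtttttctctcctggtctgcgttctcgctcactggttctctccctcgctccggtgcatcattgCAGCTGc
Akap6: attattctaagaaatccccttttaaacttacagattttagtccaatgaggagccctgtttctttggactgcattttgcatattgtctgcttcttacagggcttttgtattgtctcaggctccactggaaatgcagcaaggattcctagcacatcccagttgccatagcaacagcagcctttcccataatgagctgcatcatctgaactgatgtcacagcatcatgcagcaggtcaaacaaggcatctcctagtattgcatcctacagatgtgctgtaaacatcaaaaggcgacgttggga
Sptb: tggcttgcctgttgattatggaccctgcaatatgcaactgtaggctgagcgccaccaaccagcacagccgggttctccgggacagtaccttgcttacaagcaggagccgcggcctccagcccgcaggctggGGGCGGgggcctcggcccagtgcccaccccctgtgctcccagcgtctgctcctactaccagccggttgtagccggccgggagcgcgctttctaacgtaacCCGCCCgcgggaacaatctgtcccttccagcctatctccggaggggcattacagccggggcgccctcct

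The 3 windows had little in common. The Eef1a2 window held 1 GC box, 1 CAGCTG and 8 CpG dinucleotides, the Sptb window 2 GC boxes and 21 CpG, and the Akap6 window none of the motifs and 2 CpG. Over all shared genes, 1545 of 1908 had at least 1 such window. The GC box letters stood in 70.1% of their 2058 windows, against 35.7% of the 32851 windows of all 27025 genes in the RefSeq table. Those of genes 2-fold higher and called in brain had them in 58.8% and those of genes 2-fold higher and called in heart in 56.9%. The median number of CpG per window was 26 for the shared genes, 18 for the brain genes, 15 for the heart genes and 7 over all. TATAAA stood in 5.73% of the shared windows, 6.80% of brain windows, 10.0% of heart windows and 13.6% of all. CAGCTG stood in 13.1%, 17.4% and 20.1% of shared, brain and heart windows and in 16.3% of all. The remaining letters were less common: CTANNNNTAG stood in 3.06% of shared, 2.92% of brain, 3.73% of heart and 3.69% of all windows. AAGGTCA stood in 2.58%, 2.75%, 4.23% and 4.72% of the same sets, and TGACGTCA in 3.11%, 2.89%, 1.67% and 1.79%. These shares describe letters in a window and were not tested. The windows of all genes include genes that were not tested here, whereas the shared, brain and heart genes had to pass a level. The shares over the tested genes alone were not counted.

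The shared genes with the highest mean level, which is not per transcript length, were mostly ones that every cell uses. Malat1, a nuclear long non-coding RNA, was at 12.06 in frozen and 12.88 in FFPE brain, against 12.72 in frozen and 13.35 in FFPE heart (-0.57 ± 0.51). Macf1, a giant crosslinker of microtubules and actin, was at 8.38 and 8.99 in frozen and FFPE brain, against 8.35 and 9.29 in frozen and FFPE heart (-0.13). Dync1h1, the heavy chain of cytoplasmic dynein, was at 8.37 and 8.41 in frozen and FFPE brain, against 7.79 and 8.03 in frozen and FFPE heart, and was called higher in brain by 0.48 (adjusted p = 0.040). The levels of Rn7sk, Hsp90ab1, Fth1, Eef2, Srrm2 and Hspa8 differed by -0.53 to 0.43 between the organs and none of the 6 was called. Quantile normalization turned the sign of Malat1 (1.85) and Macf1 (1.28), so the order of the organs is not settled for these.

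Many genes of chromatin, splicing and m6A itself were shared, as were most genes at a like level: of the 2931 genes with all 4 levels at 3 or more, 65.1% were. Of 32 chromatin regulators, 31 had such levels, 29 were shared and 9 were called higher in brain. Their median difference was 0.29, beside 0.17 over all tested genes, of which 26.3% were called higher and 19.1% lower. The called counts of this list and of the splicing list are near or below these shares, and nothing is read from them. Ep300, a histone acetyltransferase, differed by 0.01 ± 0.16, and Chd3, a nucleosome remodeller, differed most of the 32, at 6.69 and 6.85 in frozen and FFPE brain against 4.11 and 4.02 in frozen and FFPE heart (2.71 ± 0.20, adjusted p = 2.6e-05). Of 32 splicing regulators, 27 had such levels, 24 were shared, 7 were called higher in brain and 4 lower (median 0.10). Hnrnpl and Hnrnpm, which bind nascent transcripts, differed by 0.04 and -0.09. Nova1, a neuronal splicing factor, was higher in brain by 3.66 ± 0.64 (adjusted p = 0.0019). Rbm20, the splicing factor of titin, was at 0.67 and 1.14 in frozen and FFPE brain against 6.45 and 7.13 in frozen and FFPE heart (-5.88 ± 0.31, adjusted p = 6.2e-06), and Rbm24, another muscle splicing factor, was lower in brain by 3.71 on the log2 scale. These counts move with the scale: by total gene counts 29 of 32 chromatin regulators and 26 of 32 splicing regulators were called higher in brain.

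Of 24 listed writers, erasers and readers of m6A, 20 met the level rule, and 12 had all 4 levels at 3 or more and were shared. Of the 20, 4 were called higher in brain and 1 lower, with a median difference of 0.31. Over all tested genes 26.3% were called higher and 19.1% lower, so nothing is read from these counts. Mettl3, the catalytic subunit of the writer, was at 1.92 and 2.49 in frozen and FFPE brain against 1.71 and 2.12 in frozen and FFPE heart (0.29 ± 0.34), and Mettl14 differed by -0.04 ± 0.28. Ythdc1, the nuclear reader, differed by -0.02 ± 0.18. The genes called higher in brain were Fto, an eraser (0.83 ± 0.18, adjusted p = 0.0062), Rbm15b and Zc3h13 of the writer complex (1.10 and 0.47) and Fmr1, the fragile X protein (1.16). Igf2bp2, a reader that stabilises RNA, was lower in brain (-2.76 ± 0.57, adjusted p = 0.0044). Without the frozen heart library 2 of the 20 were called higher and 2 lower, and by total gene counts 15 were higher and 0 lower, so the counts for this list do not hold against the scale. Ribosomal protein genes (52) had 26 shared, 2 called higher and 10 lower with a median of -0.45, and proteasome genes (31) had 15 shared, 0 higher and 3 lower with a median of -0.28. Both medians changed sign when the libraries were scaled by counts outside ribosomal RNA genes, to 0.03 and 0.19. Many ribosomal protein genes have near-identical pseudogene copies, so their counts are uncertain.

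**Figure D4:**
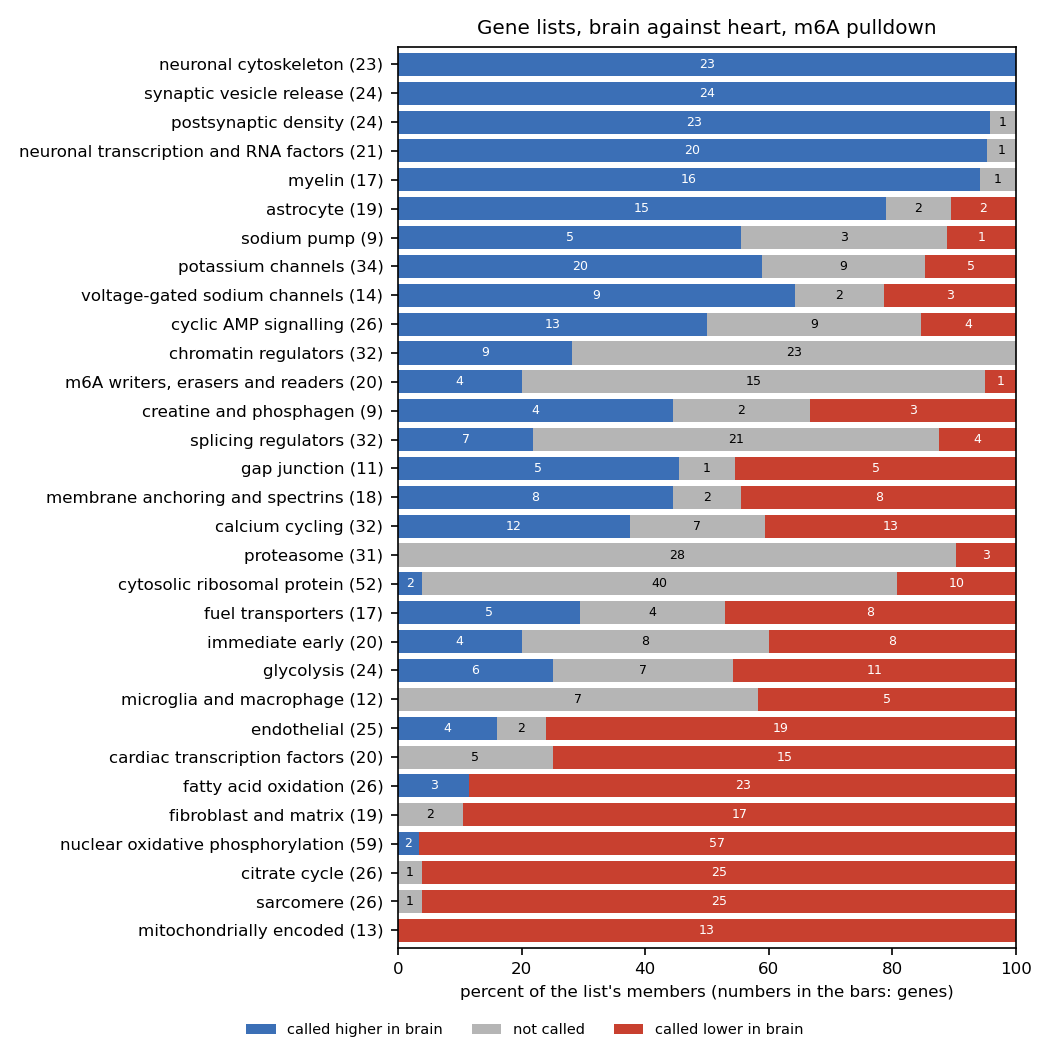
Percent of the genes of each list that were called higher in brain (blue), not called (grey) or called lower in brain (red), with the counts in the bars. Synaptic, cytoskeletal and myelin lists are nearly all blue, sarcomere, citrate cycle and oxidative phosphorylation lists nearly all red, and ion channel and calcium lists hold both.

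Genes of the synapse and the axon were higher in brain nearly throughout. All 24 genes of synaptic vesicle release were called higher in brain, with a median difference of 4.93 (4.14 in frozen and 5.79 in FFPE tissue). Of 24 postsynaptic density genes 23 were called higher (median 4.84), and so were all 23 of the neuronal cytoskeleton (5.28), against 26.3% of all tested genes. Without the frozen heart library these counts were 24, 22 and 23. All 24 of the vesicle list were also called above kidney and liver in the contrast that averages brain and heart, against 28.3% of all tested genes. A gene high in 1 of the 2 organs can pass this contrast. Both brain and both heart levels were above all 4 of kidney and liver at 12 of the 24. This share was not counted over all tested genes, so nothing is read from it.

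Snap25, a membrane fusion protein of the presynapse, was at 8.45 in frozen and 7.91 in FFPE brain, against 3.15 in frozen and 0.41 in FFPE heart (6.40 ± 1.01, adjusted p = 0.0012). Syp, a protein of the synaptic vesicle membrane, was at 7.36 and 7.02 in frozen and FFPE brain, against 2.22 and 0.32 in frozen and FFPE heart (5.92 ± 0.55, adjusted p = 8.4e-05). Camk2a, the kinase of the postsynaptic density, was at 8.20 and 7.97 in frozen and FFPE brain, against 4.30 and 3.86 in frozen and FFPE heart (4.00 ± 0.40). For all 3 the brain libraries lay far above the heart libraries, and for Snap25 and Syp the FFPE difference was the larger. Kif5a, an axonal transport motor, was at 9.12 and 8.69 in frozen and FFPE brain, against 4.61 and 1.44 in frozen and FFPE heart (5.88 ± 0.74). The exception among the postsynaptic genes was Shank3, a scaffold of excitatory synapses that was shared: it read 5.45 and 6.15 in frozen and FFPE brain and 5.30 and 5.90 in frozen and FFPE heart (0.20 ± 0.22), and both organs were above kidney and liver by 2.10.

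The genes with the largest brain excess at high level included several of no single family. Fat2, an atypical cadherin of cerebellar granule cells, was at 6.22 and 7.20 in frozen and FFPE brain, against 0.26 and -1.73 in frozen and FFPE heart, where it had 15 and 3 counts (7.45 ± 0.71, adjusted p = 9.7e-05). Kcnc1, a potassium channel of fast-spiking neurons, was at 6.17 and 6.68 in frozen and FFPE brain, against 1.08 and 0.10 in frozen and FFPE heart (5.83 ± 0.63). Aldoc, the aldolase of astrocytes and Purkinje cells, was at 7.20 and 6.24 in frozen and FFPE brain, against 1.57 and -0.29 in frozen and FFPE heart (6.08 ± 0.70, adjusted p = 0.00024). Nap1l5, a nucleosome assembly protein-like gene, differed by 6.16 and Disp2, of the dispatched family, by 7.24 ± 0.95, the last with 1 count in FFPE heart.

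Myelin genes behaved as the neuronal genes did: 16 of 17 were called higher in brain (median 5.73), and Sox10, a glial transcription factor, was not (3.5, adjusted p = 0.057). Mbp, the myelin basic protein, was at 9.39 and 8.64 in frozen and FFPE brain, against 4.09 and 2.33 in frozen and FFPE heart (5.80 ± 0.49, adjusted p = 5.6e-05). Mobp, another myelin protein, differed by 6.26. Astrocyte genes were less uniform, with 15 of 19 called higher and 2 lower (median 3.34), beside 26.3% and 19.1% of all tested genes. Slc1a2, the astrocytic glutamate transporter, was at 9.53 and 9.46 in frozen and FFPE brain, against 5.12 and 1.61 in frozen and FFPE heart (6.13 ± 0.82). The 2 lower in brain were Gja1 (-1.06), the connexin that joins astrocytes and also cardiomyocytes, and Ndrg2 (-0.81). These 2 calls depend on the scale: by total gene counts 16 of the list were higher and 0 lower. By counts outside ribosomal RNA genes 15 were higher and 0 lower.

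Of 21 neuronal transcription and RNA-binding factors 20 were called higher in brain (median 5.64), against 26.3% of all tested genes. Neurod1, a factor of granule neurons, was at 4.42 and 4.47 in frozen and FFPE brain, against -3.11 and -2.96 in frozen and FFPE heart (7.48 ± 0.95, adjusted p = 0.0004), and Zic1, a factor of the cerebellum, differed by 7.16 ± 0.77. The one not called was Rbfox1, a splicing factor of neurons and muscle, at 6.05 and 5.97 in frozen and FFPE brain and 3.57 and 3.85 in frozen and FFPE heart (2.30 ± 0.98, adjusted p = 0.086). Mef2c, a factor of neurons and muscle, was higher in brain by only 1.12 ± 0.30 (adjusted p = 0.015) and stood above kidney and liver by 3.65.

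The sarcomere was the counterpart in heart. Of its 26 genes, 25 were called lower in brain, against 19.1% of all tested genes, with a median of -9.12. In the averaged contrast 25 were called above kidney and liver, against 28.3% of all tested genes. At 7 of the 26 both organs stood above all 4 kidney and liver levels. This share was not counted over all tested genes, so nothing is read from it. The gene not called lower in brain was Nebl, a nebulin relative, with levels of 3.61 and 3.49 in frozen and FFPE brain and 4.42 and 5.55 in frozen and FFPE heart (-1.43 ± 0.77, adjusted p = 0.17). Ttn, the titin spring of the sarcomere, was at 4.46 and 5.00 in frozen and FFPE brain, against 14.37 and 14.78 in frozen and FFPE heart (-9.85 ± 0.26, adjusted p = 4.2e-07). Myh6, the main myosin heavy chain of the adult mouse heart, was at 1.86 and 2.45 in frozen and FFPE brain, against 13.33 and 13.18 in frozen and FFPE heart (-11.10 ± 0.44, adjusted p = 2.1e-06). Myh6 shares long stretches with Myh7, and Actc1 with Acta1, so single values of these pairs may hold reads of the partner.

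Several heart genes had few or no counts in brain. Myom2, an M-band protein, had 4 and 1 counts in frozen and FFPE brain, against 6037 and 4029 in frozen and FFPE heart. Myoz2, a Z-disc protein, had 3 and 0 counts in frozen and FFPE brain, against 2391 and 1539 in frozen and FFPE heart. With the 0 taken as 3 counts in that library, FFPE heart was at least 812-fold higher for Myoz2, at least 929-fold for Csrp3, a muscle LIM protein, and at least 549-fold for Fabp4, a fatty acid binding protein of capillaries and fat. Ankrd1, a stretch-responsive repeat protein, had 2 and 1 counts in frozen and FFPE brain, against 3091 and 2348 in frozen and FFPE heart, and Lmod2, an actin nucleator, 5 and 2 against 4113 and 1594. Actc1, cardiac actin, had 22 and 14 counts in frozen and FFPE brain, against 7870 and 12956 in frozen and FFPE heart (-10.27 ± 0.31), and Xirp2, an actin-binding protein of the intercalated disc, had 13 and 11 in brain (-10.04).

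Calcium handling held genes of both organs: of 32, 12 were called higher in brain, 13 lower and 7 not (14 and 9 by total gene counts, where the median was 0.89 in place of -0.43). Over all tested genes 26.3% were called higher in brain and 19.1% lower. In the averaged contrast 29 were called above kidney and liver, beside 28.3% of all tested genes. At 15 of the 32 all 4 brain and heart levels were above all 4 kidney and liver levels. This share was not counted over all tested genes, so nothing is read from it. Ryr2, the channel that releases calcium from the sarcoplasmic reticulum, was at 6.86 and 7.59 in frozen and FFPE brain, against 10.04 and 10.72 in frozen and FFPE heart (-3.15 ± 0.25, adjusted p = 4.3e-05). Atp2a2, the pump that returns the calcium, was lower in brain by 3.48 ± 0.26 on the log2 scale. Pln, the inhibitor of that pump, was at 0.05 and 0.00 in frozen and FFPE brain, against 9.24 and 9.31 in frozen and FFPE heart (-9.25 ± 0.24, adjusted p = 4.2e-07). The inhibitor thus differed more than the pump it acts on, and the groups did not overlap for any of the 3.

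On the brain side were Itpr1, the IP3-gated release channel (8.23 and 8.41 in frozen and FFPE brain, against 5.71 and 6.26 in frozen and FFPE heart, 2.33 ± 0.17), and Atp2b2, a plasma membrane calcium pump (5.38 ± 0.78). Calm2 and Calm3, which encode calmodulin, were higher in brain by 3.09 and 2.54. Cacna1a, the pore of presynaptic calcium channels, was at 5.60 and 6.52 in frozen and FFPE brain, against 1.93 and 2.06 in frozen and FFPE heart (4.06 ± 0.35). Cacna1c, the pore of L-type channels, was lower in brain by 1.78 ± 0.59 on the log2 scale (adjusted p = 0.037). Shared in this list were Jph1, a junctophilin (-0.11 ± 0.36), Camk2d (-0.54 ± 0.30), Cacna2d1, Slc8a1 and Asph. Asph, whose locus also gives the junctional protein junctin, stayed within 2-fold but was called lower in brain (-0.83 ± 0.18, adjusted p = 0.0062).

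Among 14 voltage-gated sodium channel genes, 9 were called higher in brain and 3 lower, beside 26.3% and 19.1% of all tested genes. All 4 brain and heart levels were above those of kidney and liver at 9 of the 14. This share was not counted over all tested genes, so nothing is read from it. Scn2a, a pore of axons, was at 7.16 and 7.26 in frozen and FFPE brain, against 2.85 and 0.21 in frozen and FFPE heart (5.68 ± 0.63, adjusted p = 0.0002). Without the frozen heart library 7 of the 14 were called higher. Of 34 potassium channel genes 20 were called higher in brain and 5 lower, beside the same shares of all tested genes. Kcna1, an axonal channel, differed by 3.87 ± 0.49, whereas Kcnq1, of the cardiac slow delayed rectifier, differed by -5.98 ± 0.74. Kcnj12, an inward rectifier, was shared, at 3.25 and 3.45 in frozen and FFPE brain and 3.06 and 3.80 in frozen and FFPE heart, and stood 5.33 above kidney and liver. Kcnj3, an acetylcholine-gated rectifier of atria and neurons, was at 4.27 and 4.05 in frozen and FFPE brain and 3.70 and 5.49 in frozen and FFPE heart, overlapping (-0.43 ± 0.87), and 8.36 above kidney and liver, where 3 of the 4 libraries had 0 counts. Of the pacemaker channels, Hcn2 was higher in brain by 2.71, and Hcn4, the main form of the sinus node, differed by -0.11 ± 0.77.

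Of 9 sodium pump genes, 5 were called higher in brain and 1 lower, beside 26.3% and 19.1% of all tested genes. The lower one was Fxyd1, phospholemman, a cardiac regulator of the pump, which was lower in brain by 3.40 ± 0.36 on the log2 scale. Ankyrins, spectrins and the dystrophin complex (18 genes) had 8 called higher and 8 lower, but 9 and 2 by total gene counts, where the median was 1.36 in place of 0.04. Ank2 and Ank3 were higher in brain by 1.83 and 1.77, Sptbn4, the spectrin of axon initial segments, by 5.04, and Dmd, dystrophin, was at 5.56 and 5.70 in frozen and FFPE brain, against 7.64 and 7.77 in frozen and FFPE heart (-2.07 ± 0.16, adjusted p = 3.4e-05). Among 11 gap junction genes 5 were called higher and 5 lower, with 3 of the 11 lower without the frozen heart library and 1 lower by total gene counts. Gjb6 of astrocytes differed by 6.69 ± 1.03 with 0 counts in FFPE heart, Gja5, an atrial connexin, by -5.41 ± 0.90, and Gja1 by -1.06 ± 0.30, with 6.0 and 5.40 in frozen and FFPE brain and 6.42 and 7.09 in frozen and FFPE heart.

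Cyclic AMP signalling had 8 shared genes of 26, with 13 called higher in brain and 4 lower, beside 26.3% and 19.1% of all tested genes. Adcy1, the calmodulin-stimulated adenylyl cyclase of neurons, was at 7.79 and 8.26 in frozen and FFPE brain, against 2.50 and 3.62 in frozen and FFPE heart (4.96 ± 0.32, adjusted p = 1.5e-05), Adcy5, found in striatum and heart, was higher in brain by 1.14 ± 0.22, and Adcy6 was lower by 2.96 ± 0.41 on the log2 scale. Prkar1a, a regulatory subunit of protein kinase A, was shared (0.37 ± 0.23) while its neuronal relative Prkar1b differed by 5.52 ± 0.54. Adrb1, the main cardiac beta-adrenergic receptor, had levels of 2.46 and 2.38 in frozen and FFPE brain and 1.68 and 2.62 in frozen and FFPE heart, which overlapped (0.27 ± 0.67). Without the frozen heart library 10 genes of this list were called higher and 3 lower.

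Oxidative metabolism was on the heart side almost without exception. Of 26 fatty acid oxidation genes, 23 were called lower in brain and 3 higher, with a median of -4.30. Over all tested genes 19.1% were called lower and 26.3% higher. Acadm, the medium-chain dehydrogenase, was at 2.88 and 2.46 in frozen and FFPE brain, against 7.75 and 7.27 in frozen and FFPE heart (-4.84 ± 0.26, adjusted p = 7.1e-06), and Hadha, of the trifunctional enzyme, was lower by 4.21 ± 0.17 on the log2 scale. The 3 higher in brain were Cpt1c (2.51), a brain form of carnitine palmitoyltransferase that is poor at oxidation, and the acyl-CoA ligases Acsl3 (3.96) and Acsl6 (3.82). Brain and heart together were called below kidney and liver at 18 of the 26 genes, against 24.4% of all tested genes. Pdk4, a kinase that turns off pyruvate oxidation, differed between the heart libraries, with 2.53 and 1.37 in frozen and FFPE brain, against 9.78 and 6.39 in frozen and FFPE heart (-6.14 ± 0.67).

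Of 26 citrate cycle genes 25 were called lower in brain (median -1.94), against 19.1% of all tested genes. Idh2, the mitochondrial NADP-dependent isocitrate dehydrogenase, was at 2.32 and 2.09 in frozen and FFPE brain, against 7.71 and 7.47 in frozen and FFPE heart (-5.38 ± 0.16, adjusted p = 6.1e-07), while Cs, citrate synthase, was lower by 2.54 ± 0.20 on the log2 scale. The exception was Ogdhl, a relative of 2-oxoglutarate dehydrogenase, which was shared: 4.44 and 4.32 in frozen and FFPE brain and 4.95 and 4.65 in frozen and FFPE heart, against -1.52 to 0.50 in kidney and liver. Of 59 nuclear genes of oxidative phosphorylation 57 were called lower in brain (median -2.08) and 2 higher, Cox6a1 (1.66) and Cox8a (1.79), the non-muscle forms of their subunits. All 13 mitochondrially encoded genes were called lower (median -2.89), such as COX1 at 9.88 and 9.80 in frozen and FFPE brain, against 12.56 and 12.97 in frozen and FFPE heart (-2.93 ± 0.50, adjusted p = 0.0017), and none of the 13 was called in the contrast with kidney and liver. By total gene counts 7 of 26 citrate cycle genes and 12 of 59 nuclear oxidative phosphorylation genes were called lower in brain, while 22 of 26 fatty acid oxidation genes were, so the first 2 counts depend on the scale.

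Glycolysis was mixed, with 6 of 24 genes called higher in brain, 11 lower and 5 shared, beside 26.3% and 19.1% of all tested genes called higher and lower. The balance depends on the scale, since by total gene counts 10 were higher and 4 lower and the median was 0.84 in place of -0.48. On the authors' scale the median was 0.12 in frozen and -1.12 in FFPE tissue. Enolase shows the pattern most clearly. Eno2, the neuronal enolase, was at 6.47 and 6.23 in frozen and FFPE brain, against 1.75 and -0.84 in frozen and FFPE heart (5.90 ± 0.74, adjusted p = 0.00039). Eno3, the muscle enolase, was at 0.35 and 1.02 in frozen and FFPE brain, against 7.35 and 7.52 in frozen and FFPE heart (-6.75 ± 0.35, adjusted p = 6.2e-06). Hk2, the muscle hexokinase, was lower in brain by 5.46 ± 0.62 on the log2 scale, while Hk1, the brain hexokinase, was not called (0.56 ± 0.63). Pfkm, the muscle phosphofructokinase, was lower in brain (-1.32 ± 0.33, adjusted p = 0.011), and so was Aldoa (-0.92 ± 0.29, adjusted p = 0.030), but by total gene counts their differences were 0.00027 and 0.40. Gapdh has many near-identical pseudogenes and its level, 1.91 to 3.32 in the 4 libraries, is uncertain.

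The phosphagen enzymes parted by isoform. Ckb, the brain creatine kinase, was at 7.79 and 6.61 in frozen and FFPE brain, against 3.62 and 2.81 in frozen and FFPE heart (3.98 ± 0.22, adjusted p = 7.6e-06). Ckm, the muscle creatine kinase, had 7 and 2 counts in frozen and FFPE brain, against 2124 and 2047 in frozen and FFPE heart (-10.05 ± 0.55). The creatine transporter Slc6a8 was shared, at 3.70 and 3.93 in frozen and FFPE brain and 4.14 and 4.90 in frozen and FFPE heart (-0.71 ± 0.30, adjusted p = 0.081). Of 17 fuel transporters and fatty acid carriers 5 were called higher in brain and 8 lower (7 and 6 by total gene counts). Over all tested genes 26.3% were called higher and 19.1% lower. Slc2a3, the neuronal glucose transporter, was higher by 3.01 ± 0.54, whereas Slc2a4, the insulin-responsive one (-6.75), Cd36, the fatty acid translocase (-9.65), and Lpl, lipoprotein lipase (-7.76), were lower.

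Transcription factors of the heart were called lower in brain in 15 of 20 cases, against 19.1% of all tested genes. Their median was -2.34, 9 were called lower by total gene counts, and 3 were shared. Nkx2-5, a master factor of cardiac development, had 0 counts in both brain libraries, against levels of 3.19 and 3.88 in frozen and FFPE heart. Tbx20 differed by -8.44 ± 0.78 and Gata4 by -9.24 ± 0.71, with FFPE brain at 0 counts for Gata4. The shared ones were Mef2a, at 4.34 and 4.38 in frozen and FFPE brain and 4.72 and 4.88 in frozen and FFPE heart (-0.44 ± 0.21, adjusted p = 0.12), Mef2d (-0.29 ± 0.31) and Esrrg, a nuclear receptor of oxidative tissues (0.28 ± 0.27). All 3 were called above kidney and liver, by 1.25, 1.09 and 0.78.

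Genes of the cells that support the tissue also differed, and whether the cells themselves did was not tested. Over all tested genes 19.1% were called lower in brain and 26.3% higher. Of 25 endothelial genes 19 were called lower in brain (median -3.18), such as Pecam1, an adhesion molecule of endothelial junctions, at 1.77 and 2.31 in frozen and FFPE brain, against 5.84 and 6.10 in frozen and FFPE heart (-3.93 ± 0.35). The 4 called higher in brain were the blood-brain barrier transporters Slco1a4 (3.18), Slco1c1 (3.43), Mfsd2a (4.03) and Slc7a5 (2.47). Of 19 fibroblast and matrix genes 17 were called lower in brain (median -4.01). Col3a1, a fibrillar collagen, was at 0.35 and 0.13 in frozen and FFPE brain, against 6.31 and 6.40 in frozen and FFPE heart (-6.11 ± 0.23, adjusted p = 2e-06). Sparc, a matrix protein also made by astrocytes, was shared (-0.17 ± 0.23). Of 16 listed microglia and macrophage genes, 12 met the level rule. Of these, 5 were called lower in brain and 7 were not called. This count depends on the scale: 4 were higher and 4 lower by total gene counts, and 8 were lower after quantile normalization. The 5 were Mrc1, Lyve1, Cd163, F13a1 and Ptprc, mostly genes of macrophages other than microglia. Cx3cr1, a microglial gene, ran the other way but was not called (2.05, adjusted p = 0.064 in the limma fit). Csf1r, the receptor that both microglia and macrophages need, was shared. It was at 3.67 and 3.33 in frozen and FFPE brain and 3.45 and 3.31 in frozen and FFPE heart.

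Some related genes of the same function lay on opposite sides. Of 27 pairs of paralogs or functional counterparts, picked with earlier results known, 18 had a first member called higher in brain and a second called lower. Because of that choice the count describes these pairs only, and the share among paralogs at large was not tested. By total gene counts Pfkm, Aldoa, Gnai2 and Cox7a2 were no longer lower in brain. In 4 pairs the first was higher in brain and the second was not called, namely Prkar1b with Prkar1a, Slc8a2 with Slc8a1, Tubb3 with Tubb4b and Camk2a with Camk2d. In 2 pairs both were higher in brain (Adcy1 with Adcy5, Ank3 with Ank2), in 2 both were lower (Pygb with Pygm, Cox7a2 with Cox7a1), and Actg1 was not called beside Actc1. Pygb, called the brain form of glycogen phosphorylase, went against its name. It was at 5.31 and 4.93 in frozen and FFPE brain, against 7.34 and 7.52 in frozen and FFPE heart (-2.31 ± 0.20, adjusted p = 6e-05). Pygm, the muscle form, was lower in brain as its name has it (-4.38 ± 0.39).

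**Figure D5:**
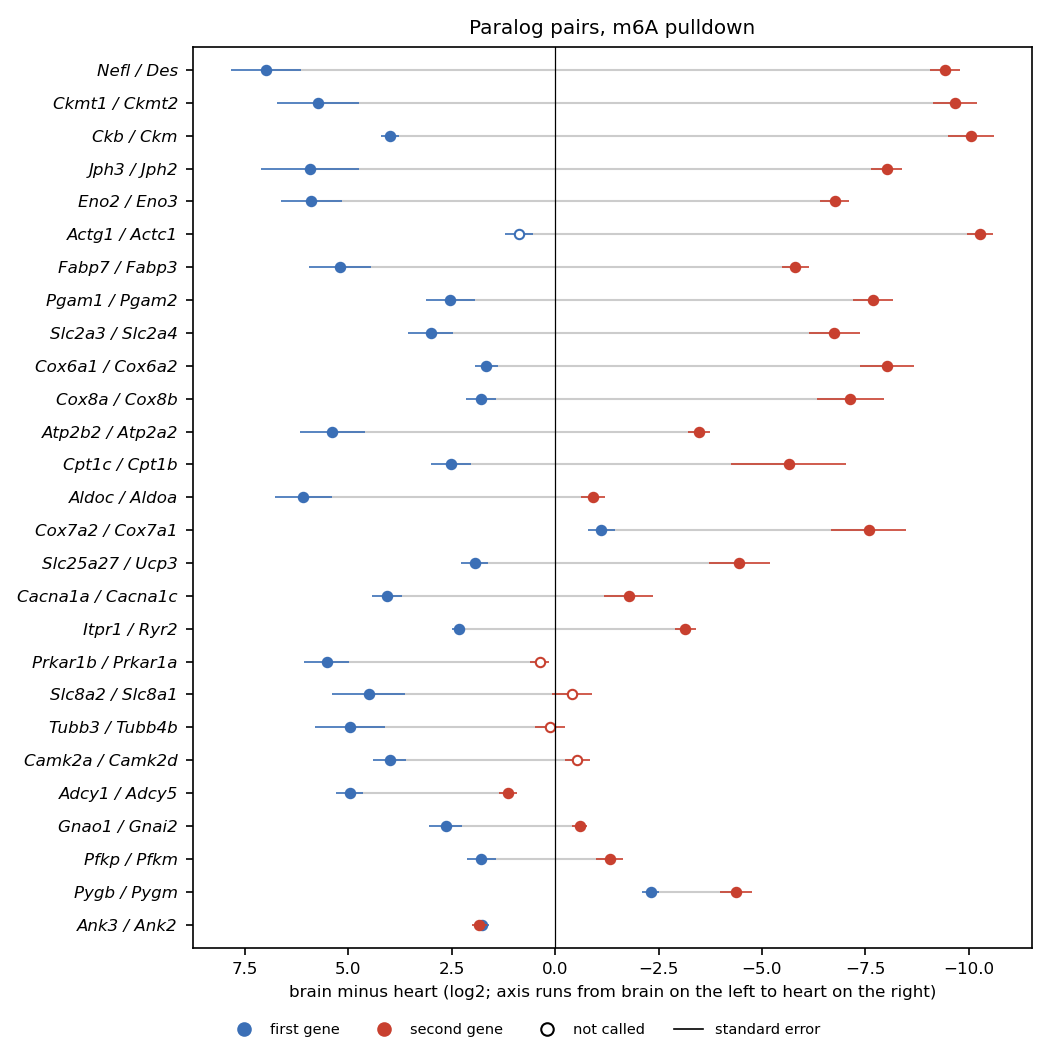
Brain minus heart difference (log2, ± SE) of the members of 27 pairs of related genes; the axis runs from higher in brain on the left to lower in brain on the right, and open points were not called. Differences of the first members reach 6.99 (Nefl) and those of the second members -10.27 (Actc1).

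The promoters of the enolase pair and of Ckm are printed because these isoforms divide between the organs. The windows are built and marked as above. Eno2 lies at chr6:124769624-124769923 on the minus strand, Eno3 at chr11:70656926-70657225 and Ckm at chr7:19410844-19411143, both on the plus strand.
Eno2: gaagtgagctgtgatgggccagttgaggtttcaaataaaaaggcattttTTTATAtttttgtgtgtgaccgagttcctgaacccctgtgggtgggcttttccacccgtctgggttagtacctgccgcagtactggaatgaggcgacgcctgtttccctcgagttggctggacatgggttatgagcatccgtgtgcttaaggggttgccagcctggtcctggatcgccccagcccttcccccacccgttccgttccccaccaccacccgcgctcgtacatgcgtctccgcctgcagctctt
Eno3: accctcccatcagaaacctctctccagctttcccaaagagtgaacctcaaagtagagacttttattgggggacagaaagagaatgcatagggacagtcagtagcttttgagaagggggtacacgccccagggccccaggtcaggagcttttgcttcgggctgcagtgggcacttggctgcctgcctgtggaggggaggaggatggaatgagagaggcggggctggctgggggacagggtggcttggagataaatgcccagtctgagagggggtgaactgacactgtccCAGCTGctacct
Ckm: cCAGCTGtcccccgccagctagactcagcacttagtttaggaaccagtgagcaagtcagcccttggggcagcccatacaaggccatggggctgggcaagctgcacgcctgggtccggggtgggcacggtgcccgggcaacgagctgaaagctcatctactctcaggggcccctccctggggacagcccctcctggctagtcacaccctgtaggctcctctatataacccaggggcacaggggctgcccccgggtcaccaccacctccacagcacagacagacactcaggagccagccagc

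The Eno2 window held the TATA box letters on the opposite strand and 15 CpG. Eno3 and Ckm each held 1 CAGCTG, with 3 and 7 CpG. CAGCTG stood in 24.4% of the windows of the 632 genes at which heart stood 2-fold or more above the other 3 organs, in 18.5% of those of the 2048 genes at which brain did, and in 16.3% of all windows. A match is a description of the letters and not of a factor at work.

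On the authors' scale, genes that stood above all other organs were more often brain genes. Of the 2976 genes 2-fold or more higher in brain, 2048 (68.8%) were also 2-fold or more above kidney and liver in both preservations. At 211 heart lay 2-fold or more below kidney and liver, 15 of the genes are in both counts, and 732 are in neither. Of the 1913 genes 2-fold or more higher in heart, 632 (33.0%) stood 2-fold or more above kidney and liver too, and at 713 (37.3%) brain lay 2-fold or more below them, with 84 in both counts and 652 in neither. Acadm was among the genes at which brain lay below, with the brain and heart levels given above beside 7.70 and 6.69 in frozen and FFPE kidney and 7.82 and 6.29 in frozen and FFPE liver.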

How the data were processed

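m6A pulldown RNA was sequenced from 4 organs, frozen or FFPE. Per the submitters' processing notes, HISAT2, featureCounts and limma were used with mm10; versions, settings and the choice of scale factors are not given in the sources used here. The authors deposited log2 normalized counts, 27179 genes in 8 m6A columns. The values were found to be log2 CPM after 0.5 was added to each count, and 100% of them turned back into whole counts to within 0.001 (in proportion to the count above 10000). That the columns hold m6A libraries rests on the name of the table; the labels list 2 m6A runs for each of the groups, and which of them a column holds is not stated. The 8 columns of a table for another RNA mark were not used. GRCm38.p6 annotation matched 25275 gene identifiers, and 1275 had no symbol.

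The fit was limma 3.58.1 (R 4.3.3; eBayes with trend) on the log2 values, with terms for organ and preservation, for genes with a log2 level above 0 in at least 2 libraries, and p-values adjusted by the method of Benjamini and Hochberg over all 14864. It was also run on data simulated from its own terms and spread. That run cannot show how the fit behaves under scale shifts, low counts or preservation effects that differ between organs. The other steps used Python 3.11.15 with pandas 2.3.3, numpy 2.4.6, scipy 1.17.1 and matplotlib 3.10.9. Intervals on counts cover counting error only, since the reads carry no molecular identifiers.

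The genes, lists, paralog pairs and rules were chosen with earlier results of these data known. Genes named for their values follow 1 rule: in each direction the 10 called genes with the largest smaller-of-2 difference at a level of at least 6; the 10 shared genes with the highest level; the 12 shared genes called above kidney and liver, at a level of at least 5; and genes 2-fold apart in opposite directions at a level of at least 4. Other named genes come from the lists. Some genes that these rules or lists name are not reported here. Alternatives changed the scale, the filter, the count added, the weights, the trend, the thresholds and the libraries.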

Additional observations from a re-analysis of the deposited data

Results flagged for a closer look

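For the 10 genes and 5 list medians below, the brain minus heart difference had opposite signs in frozen and FFPE tissue. Each organ has 1 library of each preservation, so the difference between preservations was not tested.

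Of the 11519 genes, 10 were 2-fold or more apart in opposite directions: Gm19313, Bpgm, Cd24a, Fos, Tnnt1, Tpcn2, Pon2, Dkk3, Tmed3 and Nop10. Dkk3, a secreted relative of the Wnt inhibitor dickkopf, was the 1 of them at a log2 level of at least 4. It differed by 1.95 in frozen tissue and by -1.40 in FFPE tissue, with levels of 5.08 and 4.62 in frozen and FFPE brain and 3.13 and 6.02 in frozen and FFPE heart. It had 1157 and 529 counts in frozen and FFPE brain, against 113 and 755 counts in frozen and FFPE heart, and the fit did not call it (limma, 0.28, adjusted p = 0.82).

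The median of the 24 glycolysis genes was 0.12 in frozen tissue and -1.12 in FFPE tissue, beside medians of 0.24 and 0.11 over all tested genes. The medians of the 52 ribosomal protein genes were 0.018 and -0.87 in frozen and FFPE tissue, those of the 31 proteasome genes 0.021 and -0.57, and those of the 18 ankyrin, spectrin and dystrophin complex genes 0.085 and -0.0018. The median of the 20 immediate early genes was -0.84 in frozen and 0.58 in FFPE tissue. Fos, the best known of them, was at 2.09 and 2.51 in frozen and FFPE brain and at 3.12 and 0.10 in frozen and FFPE heart.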

How the results depend on the processing

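Each difference rests on 1 library per organ and preservation, so animals add no measured spread, and the input was not analysed here. The scale decided more than any other choice. Scaled by total gene counts, 7827 tested genes were called higher in brain and 990 lower (6896 and 828 of the 11519), 51 shared genes were below kidney and liver, and the classes held 746 shared genes, 7922 higher in brain and 811 higher in heart. Scaled by counts outside ribosomal RNA genes, 5899 tested genes were higher in brain, 877 shared genes were above and 192 below kidney and liver, and the classes held 3546 shared genes and 4699 higher in brain. Without a trend 209 shared genes were below kidney and liver. At 4-fold, 1793 genes were higher in brain and 1055 in heart, and at log2 5 in both organs 261 genes were shared.

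Leaving out 1 brain or heart library gave 2180 (FFPE brain) to 3185 (frozen heart) tested genes higher in brain (2580 without frozen brain), and 1935 to 2373 lower. Of the 11519 genes, 2126 to 2869 were higher and 1699 to 2093 lower, and 439 to 519 shared genes were above and 260 to 311 below kidney and liver. In FFPE tissue alone 2505 genes were shared, 3503 higher in brain and 2696 higher in heart, and in frozen tissue alone 2363, 3911 and 2250.

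Quantile normalization turned Malat1 to 1.85, Rn7sk to 0.84 and Macf1 to 1.28. Total gene counts turned Macf1 to 1.19, Pfkm to 0.00027, Aldoa to 0.40, Cox7a2 to 0.20 and Gnai2 to 0.73. The total-count scale moves every gene of a library by 1 amount; the cause under quantile normalization was not tested. Of 1352 pairs of a gene named by rule or in a paralog pair and a setting, 1276 were counted as the same. A further 24 gained the call, 44 lost it and 8 were counted as turned. A change of sign in a gene that was not called was not always counted as turned. Total gene counts moved the median difference by 1.32, which is more than the differences of Malat1 (-0.57) and Rn7sk (-0.48). No paired analysis was possible because the columns carry no run number and each group is 1 column. Depth limits genes at or under 3 counts, chiefly heart genes in brain and neuronal genes in FFPE heart, whose fitted differences depend on the 0.5 count added.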

Other observations

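Host transcripts of tissue microRNAs divided between the organs. Mir124a-1hg, which carries a copy of the neuronal miR-124, was at 5.13 in frozen and 6.20 in FFPE brain, against 0.43 in frozen and -2.22 in FFPE heart (6.56 ± 1.0, limma adjusted p = 0.0010). Mir124-2hg differed by 5.17 and Mir9-3hg, the host of a miR-9 copy, by 5.20. Mir1a-1hg, the host of the muscle microRNA miR-1, had 2 and 0 counts in frozen and FFPE brain, against 70 and 192 in frozen and FFPE heart. Mir22hg was not called (-0.70, adjusted p = 0.056), and Mir99ahg was lower in brain (-1.27, adjusted p = 0.046).

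Of 20 immediate early genes, 4 were called higher in brain and 8 lower, beside 26.3% and 19.1% of all tested genes, and by total gene counts 10 were higher and 4 lower. Arc, a synaptic capsid-like protein, was at 4.98 and 5.05 in frozen and FFPE brain, against 0.79 and -1.73 in frozen and FFPE heart (5.49 ± 0.71, adjusted p = 0.00045), and Egr3, Nr4a2 and Egr1 were higher by 3.82, 2.73 and 1.69. Those lower in brain were Jun, Ier2, Atf3, Dusp1, Btg2, Klf2, Klf4 and Zfp36. Klf2 and Klf4, factors of endothelium under flow, differed by -2.91 ± 0.30 and -3.36 ± 0.36, and Zfp36, which promotes mRNA decay, by -4.19 ± 0.55. The lists of synaptic genes also hold Arc.

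Protein-coding genes 2-fold higher in brain spanned a median of 41.2 kb, against 25 kb for those 2-fold higher in heart, with 45.5 kb for shared ones, 28.6 kb for the 11519 genes and 25.7 kb for all tested. The interquartile ranges overlapped widely, and levels here are not per length.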
